A study of Danio rerio with 12 samples.

Results

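The genes mmp9 (ENSDARG00000042816) and mmp13a (ENSDARG00000012395) encode secreted matrix metalloproteinases. They were taken by identifier, as 2 of the 31962 genes counted in macrophages sorted from zebrafish larvae. Both had reads in all 12 libraries, with 685 to 2483 counts per library for mmp9 and 208 to 755 for mmp13a, and both passed the filter on low counts in every comparison.

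The 12 libraries fall into 4 groups of 3, and libraries with the same number were taken as 1 replicate experiment. In the Amp+Beclo group, the tails of larvae at 3 days post fertilization were partly cut off and the larvae were kept in 25 µM beclomethasone, a synthetic glucocorticoid. The Amp group had the same wound in the vehicle, 0.05% DMSO. The Beclo group had the drug without a wound, and the Control group had the vehicle without a wound. Drug or vehicle was given from 2 h before amputation, and cells were collected at 4 h post amputation (hpa).

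All groups carried the Tg(mpeg1.4:mCherry-F) transgene, in which a macrophage promoter drives a red fluorescent protein. Each library pooled red cells of 100 to 150 larvae, dissociated in the presence of the transcription inhibitor actinomycin D. These were red cells of the whole larva, not of the wound alone. In such bulk samples a smaller number of expressing cells and less RNA per expressing cell cannot be told apart.

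Matrix metalloproteinases are zinc-dependent proteases that are made as inactive proenzymes and cut proteins of the extracellular matrix and other secreted proteins. In mammals, the product of MMP9 is gelatinase B, which degrades denatured collagen and type IV collagen of basement membranes and is made by macrophages and neutrophils, among other cells. Mammalian MMP13 is a collagenase that cleaves native fibrillar collagen. Both genes are known to be induced at fin wounds in zebrafish, and glucocorticoids are known to repress several metalloproteinase genes in mammalian cells. The comparisons below address whether the genes were higher in the sorted red cells after wounding and whether beclomethasone altered that. Markers of other cell types were also present in these libraries, as given below.

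Levels are given as CPM, a gene's reads relative to all reads on genes in its library, scaled with edgeR's trimmed mean of M values (TMM). They are compared between groups and not between the 2 genes, because no transcript lengths were used. The level of mmp9 was 196, 125 and 87.2 CPM in Amp+Beclo replicates 1, 2 and 3. It was 141, 232 and 242 CPM in Amp, 84.3, 76.2 and 86.4 CPM in Beclo, and 64.4, 183 and 55.2 CPM in Control. The Beclo libraries lay close together, whereas Control replicate 2 stood far above the other 2 Control libraries and within the range of the Amp libraries.

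The level of mmp13a was 42.1, 34.6 and 24.2 CPM in Amp+Beclo replicates 1, 2 and 3. It was 42.9, 48.1 and 62.3 CPM in Amp, 18.0, 18.9 and 20.9 CPM in Beclo, and 12.2, 42.1 and 16.8 CPM in Control. Again Control replicate 2 was the high library of its group, here just under the lowest Amp library, and the Beclo libraries were the most alike.

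**Figure D1:**
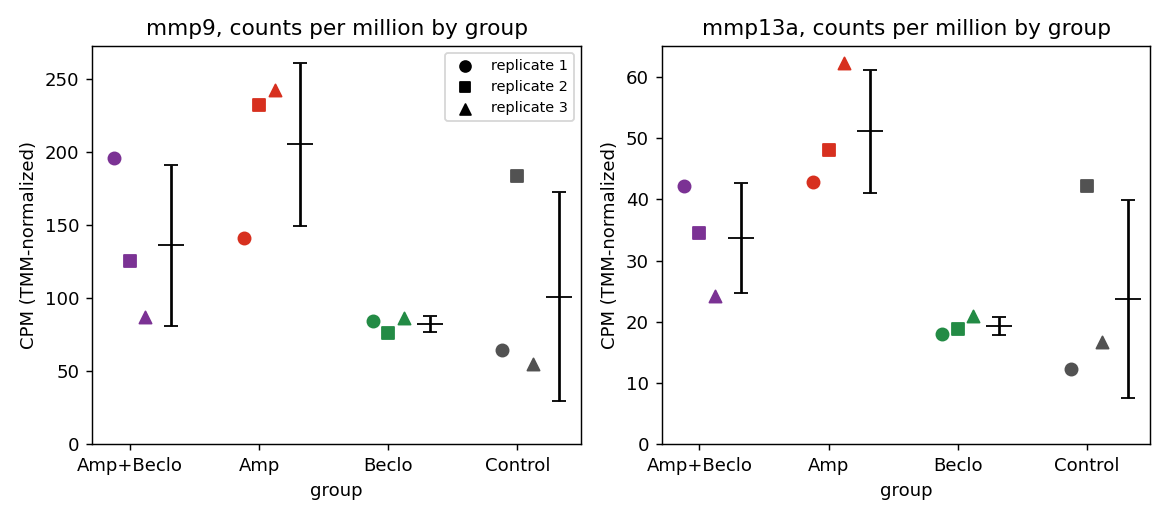
Level of mmp9 (left) and mmp13a (right) in each library, in TMM-normalized CPM on linear axes from 0, by group. Coloured symbols are the 3 replicates, and the black bar beside them is the mean with its SD (n = 3). The Amp libraries of mmp13a lie between 42.9 and 62.3 CPM and the Beclo libraries between 18.0 and 20.9 CPM, and Control replicate 2 stands above the other Control libraries for both genes.

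The mean level of mmp9 was 136 ± 55.1 CPM in Amp+Beclo, 205 ± 55.7 CPM in Amp, 82.3 ± 5.38 CPM in Beclo and 101 ± 71.5 CPM in Control (SD, n = 3 each). For mmp13a the means were 33.6 ± 8.98 CPM in Amp+Beclo, 51.1 ± 10.1 CPM in Amp, 19.3 ± 1.49 CPM in Beclo and 23.7 ± 16.1 CPM in Control (SD, n = 3 each). Both genes thus had the same order of means, with Amp highest, then Amp+Beclo, Control and Beclo. Of the neighbours in that order, Amp+Beclo and Amp did not overlap for mmp13a, by 42.1 against 42.9 CPM at the nearest. All Amp+Beclo libraries were likewise below all Amp libraries for 7.06% of 21742 genes tested. These groups overlapped for mmp9, and all other neighbouring groups overlapped for both genes.

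The spread within a group differed widely. The coefficient of variation of mmp9 was 40.4% in Amp+Beclo, 27.1% in Amp, 6.53% in Beclo and 70.8% in Control. The values for mmp13a were 26.7% in Amp+Beclo, 19.7% in Amp, 7.75% in Beclo and 68.0% in Control. The Poisson SD, the part due to counting alone, was 3.82% at the lowest count of mmp9 and 6.93% at the lowest count of mmp13a. Only the spread of mmp13a in Beclo was close to counting error.

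The first comparison asked whether amputation raised the genes in vehicle-treated larvae. The collagenase gene mmp13a rose 2.48-fold in Amp relative to Control, a log2 fold change of 1.31 with an SE of 0.38 and a 95% interval of 0.56 to 2.06. This passed the test, with an adjusted p of 0.033 in edgeR's quasi-likelihood test with the replicate experiment as a block, over all genes tested. Here and below, the SE, interval and p come from that fit, in which genes share information on variance. They do not measure the spread of the gene's own differences between replicate experiments, which are given separately. In Amp minus Control and in Amp+Beclo minus Amp, this sharing left a gene's own spread almost no weight in its interval and p. The gelatinase gene mmp9 had a similar fitted change, 1.20 with an SE of 0.40 and an interval of 0.42 to 1.99, and did not pass (edgeR adjusted p = 0.075). A gene was called when its adjusted p was below 0.05 and its fold change above 2. Of 22107 genes tested, 2.46% were called, 251 of them higher and 292 lower in Amp.

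Within each replicate experiment, both genes were higher in Amp than in Control. The log2 difference for mmp9 was 1.13, 0.34 and 2.13 in replicates 1, 2 and 3. For mmp13a it was 1.80, 0.19 and 1.88. The smallest difference was that of replicate 2 for both genes, the experiment whose Control library was high. All Amp libraries were above all Control libraries for mmp13a, as was the case for 4.04% of genes tested, while the groups overlapped for mmp9.

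The call for mmp13a depended on the fit. Without the replicate block its log2 fold change was 1.12 with an adjusted p of 0.85. Leaving out replicate 1, 2 or 3 from both groups gave log2 fold changes of 1.12, 1.91 and 1.02 with adjusted p values of 0.12, 0.10 and 0.66. The adjusted p ranged from 0.024 to 0.91 over 11 alternatives, all of which kept the positive sign. For mmp9 the log2 fold change was 1.03 without the replicate block (adjusted p = 0.85). DESeq2 with the block called it, with a log2 fold change of 1.26 and an adjusted p of 0.032, in a range of 0.032 to 0.91 over 11 alternatives.

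**Figure D2:**
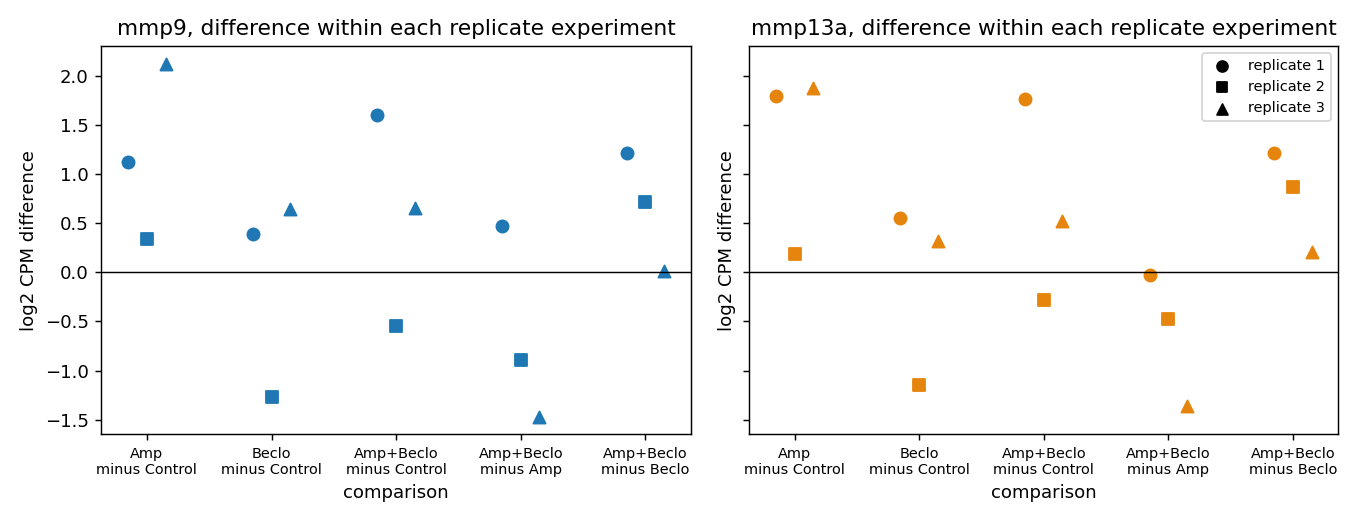
Difference in log2 CPM between groups within each replicate experiment, for mmp9 (left) and mmp13a (right). Each symbol is 1 replicate experiment. Amp minus Control was positive in all 3 experiments for both genes, and Beclo minus Control was negative in replicate 2 alone, at -1.27 for mmp9 and -1.15 for mmp13a.

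The second comparison asked what beclomethasone did without a wound. Relative to Control, the log2 fold change in Beclo was -0.07 for mmp9 (SE 0.40, 95% interval -0.94 to 0.80) and -0.09 for mmp13a (SE 0.41, interval -0.98 to 0.79). Neither passed the test (edgeR adjusted p = 0.99 for both), where 0.172% of 22127 genes were called. The sign rested on Control replicate 2. The differences were 0.39, -1.27 and 0.64 for mmp9 and 0.55, -1.15 and 0.32 for mmp13a in replicates 1, 2 and 3. Without replicate 2 the fitted log2 fold changes were 0.49 and 0.41, with adjusted p values of 0.43 and 0.64.

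The third comparison set wounded, drug-treated larvae against Control. The fitted change was 0.57 on the log2 scale for mmp9 (SE 0.41, interval -0.35 to 1.49, edgeR adjusted p = 1.00) and 0.67 for mmp13a (SE 0.40, interval -0.22 to 1.55, adjusted p = 0.93). Neither passed, and 0.419% of 22202 genes did. The differences were 1.60, -0.55 and 0.66 for mmp9 and 1.77, -0.28 and 0.53 for mmp13a in replicates 1, 2 and 3, negative only where Control was high. Without replicate 2 the log2 fold change of mmp9 was 1.12, which passed (adjusted p = 0.024), and that of mmp13a was 1.15 (adjusted p = 0.056). Over 11 alternatives the adjusted p ranged from 0.024 to 1.00 for mmp9.

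Among wounded larvae, the drug was compared directly with the vehicle. The log2 fold change in Amp+Beclo relative to Amp was -0.62 for mmp9 (SE 0.58, interval -1.77 to 0.52) and -0.60 for mmp13a (SE 0.55, interval -1.69 to 0.48). Neither passed the test, which here used the adjusted p alone (edgeR adjusted p = 0.72 and 0.71). Of 21742 genes, 0.299% were called. All Amp+Beclo libraries were below all Amp libraries for mmp13a, by a margin of 42.1 against 42.9 CPM at the nearest, and 7.06% of genes tested showed the same order. The experiments differed in size: the difference was 0.47, -0.89 and -1.47 for mmp9 and -0.03, -0.47 and -1.36 for mmp13a in replicates 1, 2 and 3. The largest reduction was thus in replicate 3 for both genes, and mmp9 was higher with the drug in replicate 1.

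The wound was also compared among drug-treated larvae. The log2 fold change in Amp+Beclo relative to Beclo was 0.70 for mmp9 (SE 0.25, interval 0.13 to 1.27) and 0.82 for mmp13a (SE 0.24, interval 0.25 to 1.39). Neither passed after adjustment over all genes (edgeR adjusted p = 0.53 for both). A single gene of 21727 passed in this comparison, 0.0046%, and 2017 had an unadjusted p below 0.05. The 3 Amp+Beclo libraries were above the 3 Beclo libraries for both genes, as for 5.61% of genes tested. For mmp9 the nearest libraries were at 87.2 CPM in Amp+Beclo and 86.4 CPM in Beclo. The within-experiment differences were 1.21, 0.72 and 0.01 for mmp9 and 1.22, 0.87 and 0.21 for mmp13a.

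Whether the change after amputation differed between drug and vehicle was tested as an interaction over all 12 libraries. The interaction was -0.43 for mmp9 (SE 0.63, 95% interval -1.77 to 0.90) and -0.41 for mmp13a (SE 0.58, interval -1.65 to 0.84), on the log2 scale. The edgeR adjusted p was 0.75 for both genes. In edgeR none of 21979 genes passed (0.0%), 2389 had an unadjusted p below 0.05, and DESeq2 called 5. Passing for mmp13a in Amp and failing in Amp+Beclo, each against Control, was therefore not accompanied by a difference that passed its own test. Without replicate 3 the interaction was 0.34 for mmp9 and 0.18 for mmp13a, so its sign depended on that experiment. It was also positive with library totals in place of TMM (0.06 for both). Without replicate 2 it was -1.04 for mmp9 and -1.10 for mmp13a (edgeR adjusted p = 0.51 and 0.47). With only the Control library of replicate 2 left out, it was -1.10 and -1.01 (edgeR adjusted p = 0.43 for both).

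**Figure D3:**
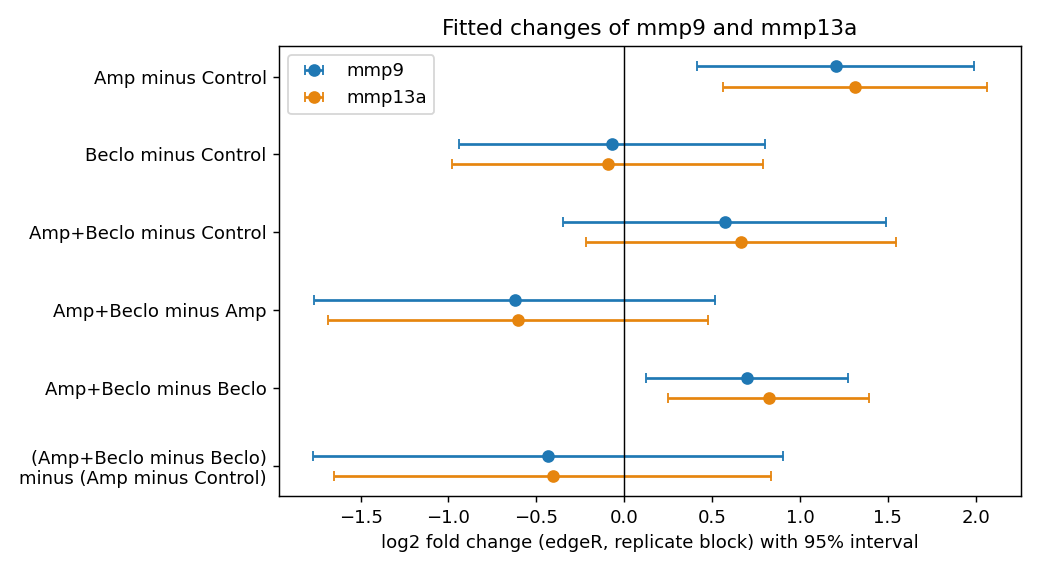
Fitted log2 fold change of mmp9 and mmp13a in each comparison, with 95% intervals, from edgeR with the replicate experiment as a block. The intervals use the variance of that fit, in which genes share information, and do not measure the spread of each gene's own differences. The degree of sharing differed between comparisons. The bottom row is the interaction. The intervals of Amp minus Control and of Amp+Beclo minus Beclo lie above 0 for both genes, and only mmp13a in Amp minus Control passed the test after adjustment over all genes.

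The scaling between libraries mattered for the size of these changes. TMM factors of Amp replicates 2 and 3 were 0.79 and 0.75, and those of the other libraries lay between 0.93 and 1.15. Under TMM the log2 fold change of the median gene was -0.11 in Amp minus Control. With library totals alone it was -0.45, and mmp9 and mmp13a were then at 0.86 and 0.96 (edgeR adjusted p = 0.18 and 0.16). Set against the median gene, the change of mmp13a was 1.42 under TMM and 1.41 with library totals, and that of mmp9 was 1.31 under both. Subtracting the median gene takes out a shift shared by all genes. These values therefore had to be close, and they do not test the scaling. The interaction was 0.06 for both genes with library totals, and -0.52 for both when set against the median gene.

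The 2 genes varied together. Over the 12 libraries, Pearson's r of their log2 CPM was 0.96 (permutation p = 1e-05, the smallest that 100000 resamples can give) and Spearman's rho was 0.97 (permutation p = 2e-05). These libraries share groups and replicate experiments, so they are not 12 independent draws. After removing the mean of each replicate experiment, r was 0.96 and rho 0.94. Within experiments 1, 2 and 3, each of 4 libraries, r was 0.96, 0.98 and 0.99. Each experiment held a library of every group, so these runs keep the differences between groups. On deviations from the group means, r was 0.91. Without Amp replicates 2 and 3, the libraries farthest from the mmp9 median, r was 0.94 (n = 10).

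**Figure D4:**
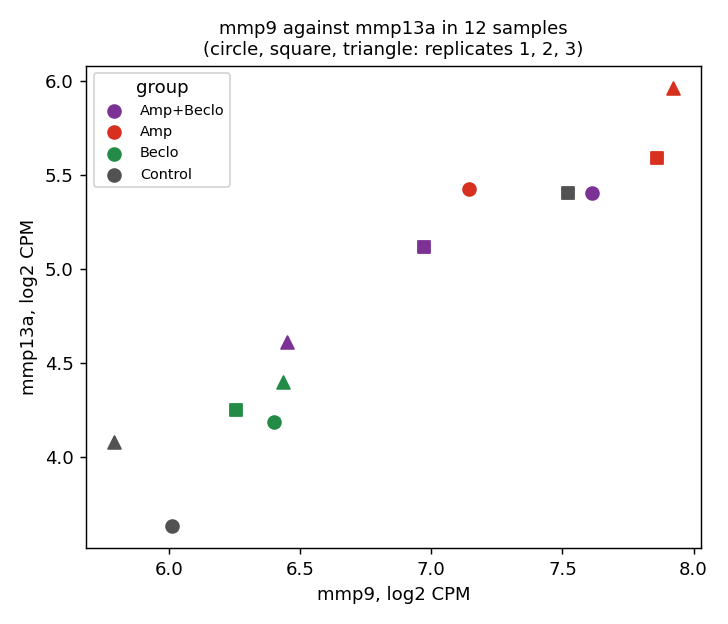
Log2 CPM of mmp13a against that of mmp9 in the 12 libraries. Colour gives the group and shape the replicate. The libraries fall along a rising line with r = 0.96, and the high Control library lies beside Amp+Beclo replicate 1.

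The ratio of the 2 genes within a library does not depend on library size. The number of mmp13a reads per 100 mmp9 reads was 21.5, 27.6 and 27.8 in Amp+Beclo replicates 1, 2 and 3. It was 30.4, 20.7 and 25.8 in Amp, 21.4, 24.8 and 24.2 in Beclo, and 19.0, 23.0 and 30.4 in Control. All groups overlapped. The log2 ratio differed by -0.02 to 0.12 in the 5 pairs of groups, with exact two-sided permutation p values of 0.5 to 1 (all 1 after Benjamini-Hochberg adjustment), where 3 against 3 cannot go below 0.1. The test could therefore not pass for any pair.

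Among 21978 other genes with at least 60 counts in all, mmp13a was the gene most like mmp9 over the 12 libraries, and mmp9 the gene most like mmp13a (r = 0.96). Next to mmp9 came plin3, which encodes a lipid droplet coat protein (r = 0.95), and ENSDARG00000100520 (r = 0.92). Next to mmp13a came ENSDARG00000100520 (r = 0.93) and acod1, listed as ACOD1, which encodes the enzyme that makes itaconate (r = 0.91). On deviations from the group means, mmp9 was still first for mmp13a, and mmp13a was 22nd for mmp9. Leaving out Control replicate 2 kept each first for the other.

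The gene plin3 was at 88.3, 83.8 and 70.8 CPM in Amp+Beclo replicates 1, 2 and 3. In the other groups it was at 88.1, 188 and 156 CPM in Amp, 58.6, 47.5 and 57.9 CPM in Beclo, and 46.4, 97.8 and 31.7 CPM in Control. For acod1, levels were 395, 596 and 447 CPM in Amp+Beclo, 286, 1038 and 1087 CPM in Amp, 153, 169 and 219 CPM in Beclo, and 57.6, 496 and 130 CPM in Control. Both genes were highest in Amp replicates 2 and 3, and Control replicate 2 was the highest library of its group. They were picked for their likeness to mmp9 or mmp13a over these same libraries. The shared pattern follows from that choice and adds no independent result.

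**Figure D5:**
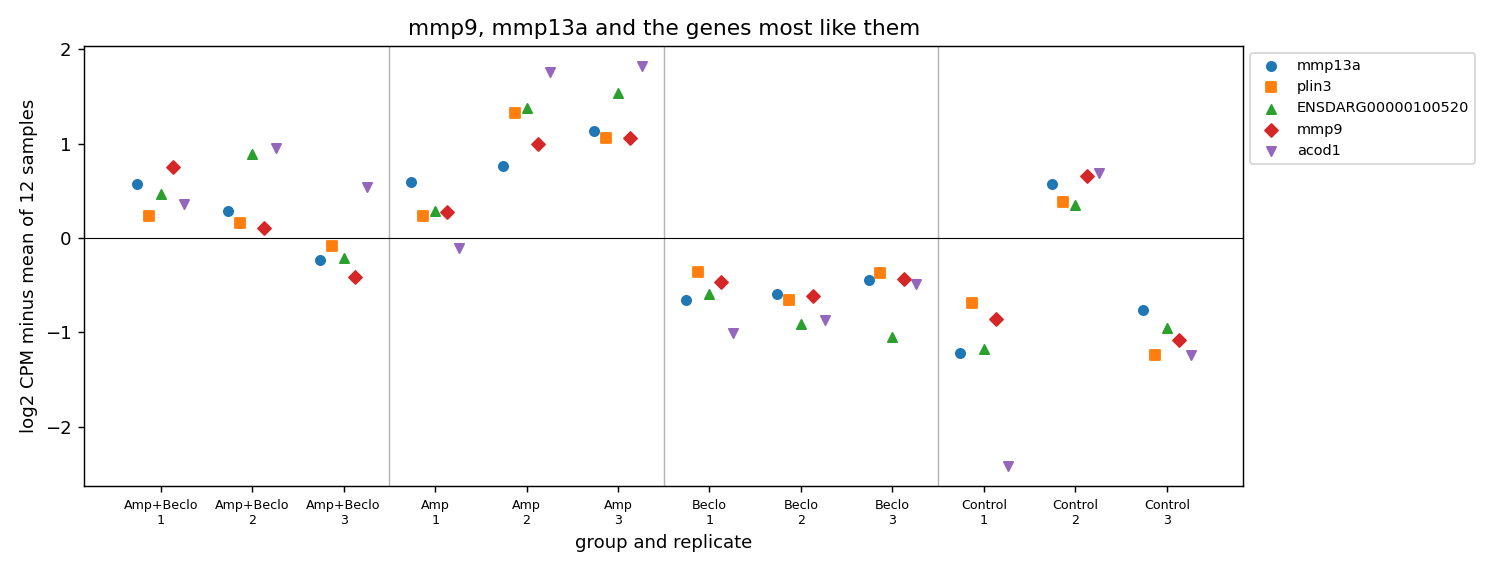
Log2 CPM of mmp9, mmp13a and the 3 genes most like them, each minus its own mean over the 12 libraries, by group and replicate. Each symbol is 1 gene in 1 library. All 5 genes stand above their mean in Control replicate 2 and below it in every Beclo library. The 3 genes were picked for this likeness, so the shared pattern follows from the choice.

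Other metalloproteinases and their inhibitors were read from the same fits. The list held 32 symbols, of which 30 could be paired with identifiers, giving 26 identifiers in the files besides mmp9 and mmp13a; mmp21 and timp3 were not among them. In Amp minus Control, 20 of the 26 passed the filter on low counts. None of the 20 was called in edgeR or DESeq2. Of all genes tested, edgeR called 2.46% and DESeq2 called 816 genes. An unadjusted p below 0.05 was found for 2 of the 20 and for 4022 of all 22107 genes. With so few members tested, a count of 0 is no result about the family. Their median log2 fold change was -0.09, beside -0.11 for all genes tested. None was called by edgeR in the other comparisons either, each with at most 2 at an unadjusted p below 0.05. Of all genes, 1159 to 2389 were below 0.05 in those comparisons. DESeq2 called 1 in Beclo minus Control and 1 in Amp+Beclo minus Control, where it called 241 and 370 of all genes.

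The genes of the list with the highest mean CPM are described next, without ranking them, since CPM is not corrected for transcript length. The first is a MMP14 gene (ENSDARG00000008388), whose human counterpart is a membrane-bound collagenase that activates pro-MMP2. It had 319, 330 and 252 CPM in Amp+Beclo replicates 1, 2 and 3, against 274, 132 and 74.9 CPM in Amp. In Beclo it had 232, 261 and 176 CPM, against 254, 210 and 137 CPM in Control. MMP2, gelatinase A in mammals, had 220, 182 and 167 CPM in Amp+Beclo, 201, 203 and 129 CPM in Amp, 267, 204 and 225 CPM in Beclo, and 192, 217 and 236 CPM in Control. Neither gene was called in any comparison. A TIMP2 gene (ENSDARG00000061226), encoding an inhibitor that binds metalloproteinases, averaged 99.6 CPM over the 12 libraries. The second MMP14 gene (ENSDARG00000002235) averaged 93.8 CPM, and RECK, a membrane-anchored inhibitor, averaged 79.1 CPM. At the low end, 10 of the 26 averaged under 1 CPM. Among them was mmp13b, the closest relative of mmp13a by name, with 61 reads in all and 0.0 to 0.98 CPM per library, so that few reads were assigned to that copy. MMP19 had no reads in any library.

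The gene that DESeq2 called was mmp25b, which is named here after its values were seen. Its human counterpart is a membrane-anchored protease of leukocytes. It had 27.0, 15.0 and 19.6 CPM in Amp+Beclo replicates 1, 2 and 3, against 14.5, 4.05 and 4.18 CPM in Amp. In Beclo it had 24.7, 19.6 and 23.6 CPM, against 9.71, 10.1 and 2.98 CPM in Control. All drug-treated libraries were thus above all vehicle-treated libraries, an order shown by 0.965% of 21979 genes and by neither mmp9 nor mmp13a. In edgeR the log2 fold change of mmp25b was 1.71 in Beclo minus Control (SE 0.45, adjusted p = 0.27), 1.54 in Amp+Beclo minus Control (SE 0.43, adjusted p = 0.25) and 1.67 in Amp+Beclo minus Amp (SE 0.59, adjusted p = 0.29), and it was not called.

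The libraries held 9488569 to 18865019 reads on genes. Reads outside genes were 4.72% to 12.6% of the total, and the 2 lowest shares, 4.72% and 6.55%, were those of Amp replicates 3 and 2, the libraries with the highest mmp9. Macrophage genes were present in every library: the summed level of 11 marker identifiers was 4626 to 15738 CPM in Amp+Beclo, 8927 to 27690 in Amp, 9987 to 16361 in Beclo and 4376 to 17082 in Control. Several of the 11 were genes with the symbol MFAP4, which led the sum. The planned markers mpeg1.1, spi1b and grn1 were not paired with an identifier. Markers of other cells were present too. The summed level of 6 keratinocyte genes, led by the keratin gene krt4, was 8532 to 17146 CPM in Amp+Beclo, 7362 to 31438 in Amp, 12622 to 20869 in Beclo and 7318 to 16252 in Control. It was above the macrophage sum in replicate 3 of every group and in replicate 2 of Amp+Beclo and Beclo. In the remaining libraries it was below. The sums were 31438 against 8927 CPM in Amp replicate 3 and 7318 against 17082 CPM in Control replicate 2. Such sums do not give the shares of cells. The 3 neutrophil markers, led by srgn and without mpx, summed to 113 to 323 CPM in Amp+Beclo, 104 to 608 in Amp, 155 to 232 in Beclo and 86.1 to 245 in Control. The 2 muscle genes summed to 3035 to 10401 CPM in Amp+Beclo, 5261 to 15058 in Amp, 4528 to 7174 in Beclo and 1927 to 7846 in Control. The 3 erythrocyte genes summed to 514 to 1024 CPM in Amp+Beclo, 1103 to 2673 in Amp, 829 to 1653 in Beclo and 816 to 1575 in Control. No marker of these 5 lists was at 0 in any library.

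In Amp minus Control, where 2.46% of all genes were called, 1 of 2 muscle genes was called, higher in Amp, and no marker of the other 4 lists. The lists are too short for these counts to say that other cell types did not differ between the groups. The muscle gene ckma was higher in Amp than in Control in each replicate, whereas myhz2 was lower in replicate 2 (879 against 987 CPM). Control replicate 2, the library with high mmp9 and mmp13a, had the highest macrophage sum of its group (17082 CPM) and the lowest keratinocyte sum of all libraries (7318 CPM). Not every macrophage marker followed the macrophage sum, as marco and CORO1A were higher in Control replicate 1. Nor did every keratinocyte marker follow the keratinocyte sum, as krt4 was lower in Amp replicate 1, and cldni and epcam were lower in Control replicate 1. The keratinocyte sum of Amp replicate 1 was close to that of Control replicate 2, at 7362 CPM. Amp replicates 2 and 3, with the highest mmp9, had keratinocyte sums of 20296 and 31438 CPM, against 7362 CPM in Amp replicate 1. A high keratinocyte sum did not always go with high mmp9, as Beclo replicate 3 had 20869 CPM with mmp9 at 86.4 CPM. Amp replicate 2 also had the highest macrophage sum of all libraries (27690 CPM), and Amp replicate 3 the lowest of its group (8927 CPM). The part of other cell types, of the share of reads outside genes and of depth in the results for mmp9 and mmp13a was not tested.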

How the data were processed

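From FACS-sorted macrophages the authors built SMART-seq V4 libraries, and they mapped reads to GRCz10 with TopHat2 2.1.0. The authors deposited raw counts of reads per Ensembl gene for each of the 12 samples. The counting program and its strand setting are not given in the sources used here. Rows for reads outside genes or ambiguous were left out of library sizes. SMART-seq has no molecular identifiers, so counting errors cover reads only.

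Samples were grouped by their labels. Each pair of groups was fitted in edgeR 4.0.16 (R 4.3.3; TMM, quasi-likelihood F test, genes with at least 30 counts over 6 samples, or 60 over 12 for the interaction), with the replicate experiment as a block, because the study names a paired analysis against the control group and 3 replicate experiments; that label numbers mark these experiments was assumed. Same-numbered samples deviated together in Amp and Control (correlations across genes of 0.47, 0.52 and 0.66). Over all comparisons the correlation was over 0.1 in 9 of 15 pairs and ranged from -0.38 to 0.66. The lowest was that of replicate 2 in Amp+Beclo minus Control, so the pairing did not show in every comparison. p-values were adjusted by Benjamini-Hochberg over all genes tested. Correlations used log2 CPM with a prior count of 2, and ratios log2 counts plus 0.5. The fits were tested on simulated data in which same-numbered samples shared an effect and all genes had the same dispersion. These simulations assumed the pairing and the spread, so they do not test either in the real samples. DESeq2 1.42.0 (with the block), no block, other scaling, no filter, a fit of all 12 samples and leaving out each replicate were alternatives. Scaling by library totals, leaving out Control replicate 2, and the alternative forms of the most-alike ranking were added after the data were seen.

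The members and lists were chosen with earlier results of these data known. Named were mmp9, mmp13a, every listed metalloproteinase or inhibitor that was called and the 5 highest by mean CPM, and the 3 genes most like each member. Symbols came from a table pairing 26121 of the 31962 identifiers, which gives some zebrafish genes their human symbol without a paralog letter. Sequences, positions and motifs were not analysed here.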

Additional observations from a re-analysis of the deposited data

How the results depend on the processing

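Of 94 tests of mmp9 and mmp13a under alternatives set out at the start, 82 kept their direction and their side of the threshold. Only 4 of the 94 were called, so most of the 82 were tests that stayed uncalled. The log2 fold change of mmp13a in Amp minus Control no longer passed without the replicate block (1.12), without a filter on low counts (1.31, adjusted p = 0.051), in a fit of all 12 samples (1.21), in that fit or without the block when Control replicate 2 was left out (1.83 and 1.90), with library totals (0.96), or without any 1 replicate (1.02 to 1.91). That of mmp9 passed in DESeq2 (1.26), and in Amp+Beclo minus Control without replicate 2 (0.072 to 1.12 with each replicate left out). Beclo minus Control turned positive without replicate 2, at 0.49 for mmp9 and 0.41 for mmp13a, with ranges over the replicates left out of -0.43 to 0.49 and -0.45 to 0.41, and likewise without Control replicate 2 in the fit of all samples (0.47 and 0.43) and without the block (0.44 and 0.38). The interaction turned positive without replicate 3 (-1.04 to 0.34 for mmp9 and -1.10 to 0.18 for mmp13a over the replicates left out) and with library totals (0.057 for both). The ratio of mmp13a to mmp9 in Amp+Beclo minus Amp ranged from -0.19 to 0.26 on the log2 scale with a replicate left out. In the ranking of likeness to mmp9, mmp13a was 22nd on deviations from group means and 2nd by Spearman correlation. Counts of genes called moved more. In Amp minus Control, 543 became 0 without the block (938 at an unadjusted p below 0.05), 816 in DESeq2 and with library totals, 7 in the fit of all samples (1 when it also left out Control replicate 2), 0 without both the block and that library (829 unadjusted) and 2 to 1508 with a replicate left out. In Beclo minus Control, 38 became 60 (DESeq2's size factors), 241 (DESeq2), 138 (no filter), 7 (library totals), 40 in the fit of all samples (5 when it also left out Control replicate 2) and 3 to 140 (replicates). In Amp+Beclo minus Control, 93 became 29 (no block), 141, 370, 261 and 21 for those same choices, 81 in the fit of all samples (13 when it also left out Control replicate 2), 22 without both the block and that library, and 35 to 664 (replicates). In Amp+Beclo minus Amp, 65 became 2 (no block), 25 (all samples), 39 (library totals) and 1 to 13 (replicates). In Amp+Beclo minus Beclo, 1 became 0 (no block, DESeq2's size factors, library totals, with 1140, 2087 and 2043 unadjusted), 107 (DESeq2), 18 (no filter) and 0 to 38 (replicates). The interaction had 5 in DESeq2. The cause of these moves was not tested. The replicate block changed no other call of either gene. With 3 libraries a group, the interval of each change spans more than 1 log2 unit.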
